A study of Arabidopsis thaliana with 144 samples.

Results

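The comparison described here was between the Arabidopsis mutant phf1 and its wild type Col-0, grown at high phosphate (Pi) together with a bacterial synthetic community (SynCom). The libraries were chosen by their titles alone, as all phf1 and Col-0 libraries at high Pi with SynCom. That gave 24 RNA-seq libraries, 12 of phf1 and 12 of Col-0, out of the 36 groups of 4 libraries that make up the series. All were poly(A) RNA of whole seedlings. For the first 7 days seedlings of either genotype received one of these pre-treatments: 5 µM Pi (−P), Pi at 1 mM (+P), or phosphite at 1 mM (+Phi). Phosphite resembles Pi and is absorbed by plants, but cannot serve as a nutrient. They then spent 12 days at 625 µM Pi without sucrose, in the presence of the bacteria. Each genotype had 4 libraries per pre-treatment, 2 from experiment A and 2 from experiment B, written below as A1, A2, B1 and B2. The labels name the mutant only as phf1, with no allele, and do not say how many seedlings made a library or whether libraries came from separate plates, so that p values measure the spread between these libraries. Values from 24 axenic libraries (no bacteria) at high Pi and 24 SynCom libraries at low Pi (50 µM), again 12 of phf1 and 12 of Col-0 each, are used to show where the genotype effect differed. Levels of 3 genes are also given in the 12 libraries of the double mutant phr1phl1 at high Pi with SynCom, after the same pre-treatments.

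PHF1 is an endoplasmic reticulum protein that lets PHT1 phosphate transporters leave for the plasma membrane, so mutants without it take up Pi poorly. The transcriptional response to Pi starvation is driven by the MYB factors PHR1 and PHL1, which bind a short motif called P1BS. When Pi is plentiful, SPX proteins bind PHR1 and hold it off DNA. When Pi is scarce, PHR1 targets such as IPS1 and AT4 are made. These non-coding RNAs bind the microRNA miR399 and keep it from the mRNA of PHO2, an enzyme that marks Pi transporters for degradation.

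The sites by which IPS1 and AT4 bind miR399 are shown first because these RNAs gave the largest differences of their role group. The mature miRNA is written with its seed (bases 2 to 8) in capitals, and the sites with the bases that pair with it in capitals. Each site pairs with 18 of the 21 bases of miR399b and carries 3 extra bases in the middle, which leave it uncut. All sequences and positions here come from RefSeq on the TAIR10.1 assembly, nuclear plus strand where not said otherwise.
miR399b: uGCCAAAGgagaguugcccug
IPS1, chr3:3051224-3051247: ttGGGCAACTtctaTCCTTTGGCA
AT4, chr5:895149-895172: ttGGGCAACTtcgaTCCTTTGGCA

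The P1BS motif was searched for as GNATATNC, a palindrome and so the same on both strands, in the 250 bases before each annotated gene start. It was present before 7 of the 39 genes called higher in phf1 (17.9%), before 0 of the 3 called lower, and before 976 of the 17911 tested genes with such a window (5.45%). This is a description of letters, not of binding, and no match says only that these letters are not in that window. Stretches of 60 bases around the motif, in capitals, are given for Pi genes that carried it, read 5′ to 3′ along the strand of the gene. GDPD1 carried the motif 2 times, and the stretch shows the copy nearer to its start.
AT4, chr5:894522-894581, motif at −26: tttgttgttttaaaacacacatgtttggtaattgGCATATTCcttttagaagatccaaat
PHT1;2, chr5:17415630-17415689, motif at −42: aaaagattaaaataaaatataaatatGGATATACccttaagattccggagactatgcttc
GDPD1, chr3:350040-350099, minus strand, motif at −63: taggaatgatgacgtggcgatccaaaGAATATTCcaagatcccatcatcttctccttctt
PLDZ2, chr3:1634988-1635047, motif at −180: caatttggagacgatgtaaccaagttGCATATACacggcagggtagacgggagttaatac
PPsPase1, chr1:27466532-27466591, minus strand, motif at −217: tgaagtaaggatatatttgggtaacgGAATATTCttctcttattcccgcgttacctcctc

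The libraries held 2.45 M to 6.35 M counts in phf1 (median 4.42 M) and 2.36 M to 5.84 M in Col-0 (median 3.79 M). The summed level of 6 root markers was 596 to 1438 CPM (counts scaled to a common library size) in phf1, with a median of 973, and 543 to 1931 CPM in Col-0, with a median of 875. The summed level of 6 shoot markers was 15440 to 33140 CPM in phf1 and 12820 to 38470 CPM in Col-0, as a whole-seedling sample with both organs would have. In both genotypes the root marker sums were higher, and the shoot marker sums lower, in experiment A than in B. In such bulk samples fewer cells of a type and less RNA per cell cannot be told apart.

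The level of PHF1 did not separate the genotypes at high Pi with SynCom. It was 7.17, 10.8 and 19.4 CPM (lowest, median, highest library) in phf1 and 5.81, 11.6 and 20.0 CPM in Col-0, a log2 difference of −0.07 ± 0.14 (SE; adjusted p = 0.891, edgeR's quasi-likelihood test). PHF1 counts therefore give no check of the labels here. A pair of phf1 libraries stood apart in PHL1, with 71 CPM in −P A2 and 30.5 CPM in +Phi A1, against 11 to 16.7 CPM in the other 22. Their genotype was in doubt for that reason. The same libraries had the lowest PHR1 levels among the 24 libraries, 50.8 CPM in −P A2 and 47.5 CPM in +Phi A1. The beta-galactosidase related gene AT5G35760, which had 1.82 to 7.58 CPM in all 12 phf1 libraries and 0 to 0.471 CPM in Col-0, stood at 3.91 CPM in −P A2 and at 1.82 CPM in +Phi A1. In the 12 phr1phl1 libraries of the same condition, on a scale set over all libraries of the series, it reached at most 0.69 CPM. The other 10 phf1 libraries had 1.83 to 7.58 CPM of it, and both doubtful libraries were above every Col-0 library. However, AT5G35760 was picked after its values were seen, with both of these libraries counted as phf1. Its levels therefore cannot settle their genotype.

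With all 24 libraries, few genes passed the edgeR test between the genotypes, and 15 of them belonged to the lists of Pi genes described next. edgeR called 42 of 17928 tested genes at an adjusted p under 0.05 (0.234%). Of these, 39 were higher in phf1 (0.218% of the genes tested) and 3 were lower (0.0167%). The difference was at least 2-fold for 28 of the 42. In 10 of the 42 no phf1 library overlapped any Col-0 library, and these 10 were also the only ones among all genes tested (0.0558%). They were IPS1, AT4, PHT1;2, AT5G35760, AT1G07920, SPX1, PHT1;4, PFA-DSP4 and SQD1, higher in phf1, and PAP10, lower in phf1. Without the pair of doubtful libraries the count was 53, of which 39 were among the 42. The log2 difference without them was 5.07 for AT4, 2.33 for SPX1, 4.55 for PHT1;2 and −1.56 for PAP10. The count was 40 without replicate A1, 25 without A2, 23 without B1 and 21 without B2. With DESeq2 it was 129, and an edgeR fit with the replicate number as a block also called more genes, as given below. In both of these, genes lower in phf1 made up a larger share of the calls. Of 26 called genes followed through the alternatives, 16 were called whichever replicate number was left out.

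**Figure D1:**
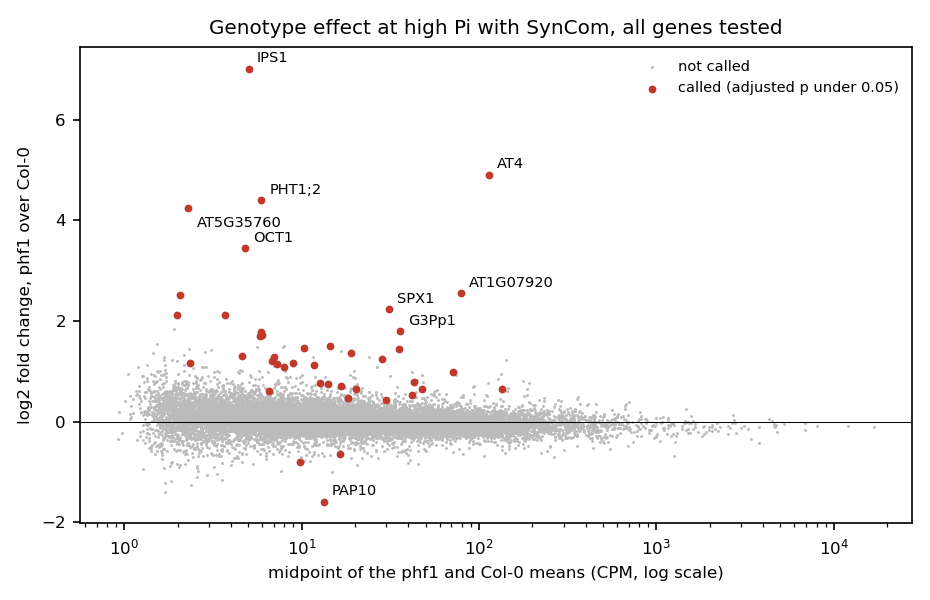
Each point is a gene tested. The horizontal axis is the midpoint of its mean levels in phf1 and Col-0 (CPM, log scale), and the vertical axis is the log2 fold change of phf1 over Col-0 at high Pi with SynCom (n = 12 each). The 42 called genes are red, and 39 of them lie above 0.

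Among the 4 lists of Pi genes (signalling, transport, scavenging and membrane lipid remodelling), 51 of 63 listed genes were tested. Of these 51, 14 rose in phf1 and 1, PAP10, fell, which is 29.4% against 0.234% of all genes tested. Their median log2 difference was 0.44, and that of all genes tested was 0.01. The lists were made with earlier results of these data known, so their share is a description.

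The Pi signalling list had 4 of 13 tested members higher, IPS1, AT4, SPX1 and SPX2, and 0 lower. IPS1 (AT3G09922), a non-coding RNA that sequesters miR399, had 4.98, 8.38 and 26.2 CPM in phf1, against 0, 0 and 0.327 CPM in Col-0. All 12 phf1 libraries held IPS1 counts, 504 in all, and 2 Col-0 libraries held a single count each. The ratio of the summed levels was 224, with a 95% interval from 61.8 to 1860 (exact conditional binomial, counting error only). AT4 (AT5G03545), a second RNA of that kind, had 88.5, 145 and 511 CPM in phf1 and 2.71, 6.28 and 14.5 CPM in Col-0. Its log2 difference was 4.91 ± 0.29 (adjusted p = 2.22e-11, edgeR). Every phf1 library thus had more than 6 times the AT4 level of the highest Col-0 library. The difference in AT4 was 5.43 in experiment A and 4.32 in experiment B.

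SPX1, a Pi sensor that holds back PHR1 and is itself a target of PHR1, had 28.1, 37.7 and 96.1 CPM in phf1 and 4.59, 10.1 and 20.6 CPM in Col-0. The groups did not overlap, and the log2 difference was 2.23 ± 0.19 (adjusted p = 6.12e-08, edgeR). Its phf1 libraries of experiment A had 28.3 CPM in the doubtful library −P A2 and 64 to 96.1 CPM in the rest. The phf1 libraries of experiment B had 28.1 to 38.8 CPM. SPX2, a paralogue of SPX1, was 0.64 ± 0.11 higher on the log2 scale (adjusted p = 0.00343), with 17.9 to 35.6 CPM in phf1 and 11.2 to 20.2 CPM in Col-0. SPX4, another member of that family, had 17.2 to 28.4 CPM in phf1 and 18.7 to 27.8 CPM in Col-0, and its difference of 0.04 ± 0.09 did not pass the test. SPX3 did not pass the filter on low counts, with at most 2.59 CPM in phf1 and at most 0.518 CPM in Col-0.

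The regulators themselves did not pass the test with all 24 libraries. PHR1 had 47.5, 64.1 and 84.5 CPM in phf1 and 63.0, 72.2 and 87.7 CPM in Col-0 (−0.18 ± 0.09, adjusted p = 0.422, edgeR). The lowest of these PHR1 values was that of the doubtful library +Phi A1. The PHL1 difference was 0.44 ± 0.24 with the doubtful libraries and −0.02 ± 0.10 without them. PHO2, the ubiquitin-conjugating enzyme that miR399 targets, had 106, 176 and 347 CPM in phf1 and 182, 333 and 552 CPM in Col-0. Its difference of −0.71 ± 0.18 had an adjusted p of 0.115 in edgeR, and passed without the doubtful libraries at −0.92 ± 0.17 (adjusted p = 0.00777). NLA, which marks PHT1 transporters for degradation, stood at −0.47 ± 0.15 (adjusted p = 0.24).

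In the Pi transport list 4 of 13 tested members rose in phf1, PHT1;2, PHT1;3, PHT1;4 and G3Pp1, and 0 fell. The PHT1 proteins carry Pi into cells across the plasma membrane. PHT1;2 (AT5G43370) had 2.07, 8.11 and 28.8 CPM in phf1, against 0, 0.451 and 1.02 CPM in Col-0, a log2 difference of 4.41 ± 0.33 (adjusted p = 4.83e-09, edgeR). Its 568 counts in phf1 and 20 in Col-0 gave a ratio of 25.3 (95% interval 16.2 to 41.7, counting error only). The phf1 libraries of the +P pre-treatment had the highest PHT1;2 values, 14.2 to 28.8 CPM, against 2.07 to 11.1 CPM after −P and 6.97 to 8.57 CPM after +Phi. PHT1;2 shares 45.4% of its 50-base transcript windows with other PHT1 transcripts and PHT1;1 shares 42.4%, so their counts may be split between the 2 genes and are uncertain.

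PHT1;4, which shares 0% of such windows, had 12.1, 16.6 and 48.2 CPM in phf1 and 4.41, 6.64 and 11.8 CPM in Col-0. Its log2 difference was 1.49 ± 0.19 (adjusted p = 3.76e-05, edgeR), with 1.88 in experiment A and 1.08 in B. PHT1;3 rose by 1.79 ± 0.33 (adjusted p = 0.00966), but its level depended on the experiment. In phf1 it was 0.211 to 3.24 CPM in experiment A and 7.81 to 34.4 CPM in B, and in Col-0 0 to 1.31 CPM in A and 1.79 to 10.1 CPM in B. G3Pp1, a glycerol-3-phosphate permease family member, had 25.3, 48.6 and 102 CPM in phf1 and 5.37, 15.3 and 31.4 CPM in Col-0 (1.79 in experiment A and 1.87 in B, adjusted p = 1.5e-06 over both). PHT1;1 had 74.4, 136 and 229 CPM in phf1 and 34.4, 72.8 and 268 CPM in Col-0. The groups overlapped and the difference of 0.77 ± 0.19 did not pass (adjusted p = 0.0983). PHO1, the exporter that loads Pi into the xylem, had 117, 172 and 233 CPM in phf1 and 101, 187 and 272 CPM in Col-0 (−0.14 ± 0.15, adjusted p = 0.754).

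**Figure D2:**
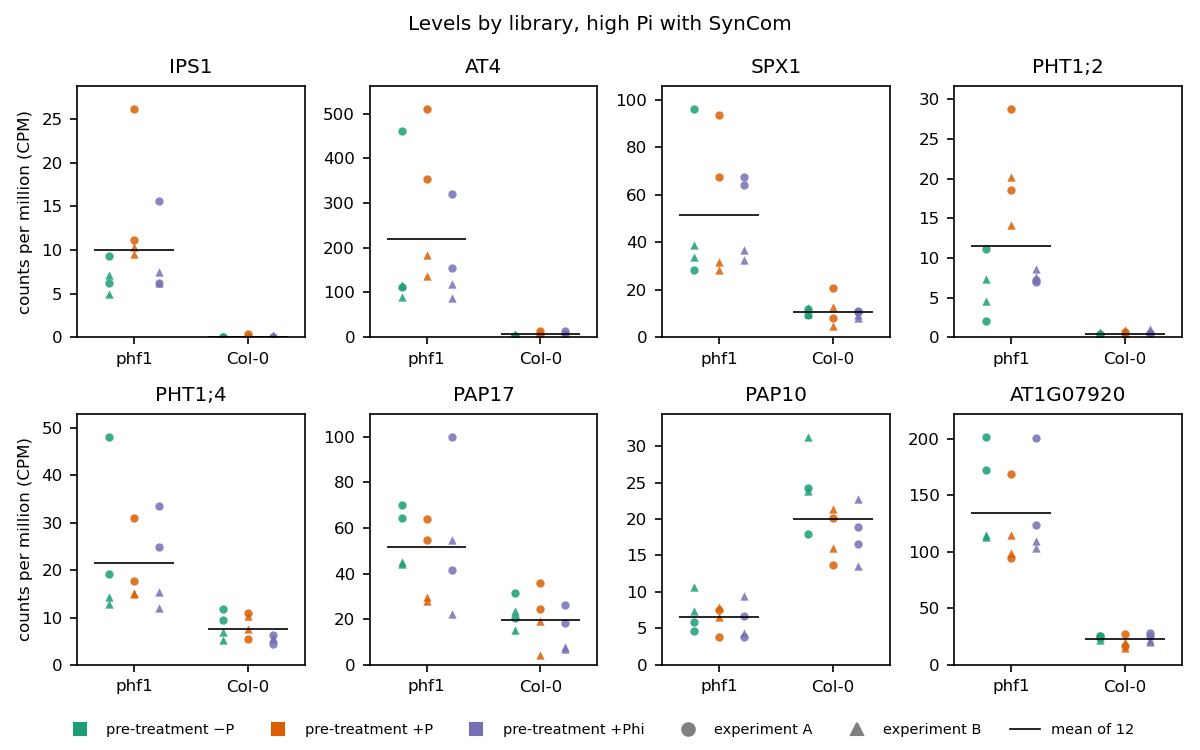
Levels in CPM of 8 genes in each of the 24 libraries, phf1 left of Col-0 in each panel, coloured by pre-treatment and shaped by experiment, with a line at the mean of 12. IPS1, AT4, SPX1, PHT1;2, PHT1;4 and AT1G07920 are higher in every phf1 library than in any Col-0 library, PAP10 is lower in every phf1 library, and the PAP17 groups overlap.

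Genes that release Pi from organic sources moved in both directions. In the Pi scavenging list 3 of 12 tested members rose, PAP12, PAP17 and PPsPase1, and 1 fell, PAP10. PAP17, an acid phosphatase induced by Pi starvation, had 22.3, 49.9 and 100 CPM in phf1 and 4.24, 19.9 and 36.0 CPM in Col-0 (1.44 ± 0.20, adjusted p = 2.35e-04, edgeR). PAP12, a secreted acid phosphatase, was 0.52 ± 0.08 higher (adjusted p = 0.00116). PPsPase1, a pyrophosphate-specific phosphatase, had 1.31, 2.97 and 21.5 CPM in phf1 and 0, 0.973 and 6.22 CPM in Col-0. The groups overlapped for PPsPase1, and its difference of 2.12 ± 0.41 (adjusted p = 0.0166) was called in 2 of the 4 fits without a replicate number. PECP1, a phosphoethanolamine and phosphocholine phosphatase, stood at 1.84 ± 0.42 and did not pass (adjusted p = 0.07).

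PAP10, an acid phosphatase of the root surface, was the called member of its list that fell. It had 3.8, 6.62 and 10.7 CPM in phf1 and 13.6, 19.6 and 31.3 CPM in Col-0, with no overlap. The log2 difference was −1.60 ± 0.15 (adjusted p = 2.13e-07, edgeR), with −1.75 in experiment A and −1.45 in B. PAP10 was also lower in phf1 at high Pi in the absence of bacteria (−1.20, adjusted p = 1.7e-07) and under SynCom at low Pi (−0.96, adjusted p = 2.72e-04). In phr1phl1 at high Pi with SynCom its median was 5.22 CPM, beside 6.89 in phf1 and 20.5 in Col-0 on the scale of the whole series. The phr1phl1 libraries ranged from 3.68 to 60.3 CPM, so the highest was above every Col-0 library (14 to 33.2 CPM).

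Of 13 tested genes of membrane lipid remodelling, 3 rose in phf1 and 0 fell. GDPD1, a glycerophosphodiester phosphodiesterase, had 39.8, 99.9 and 115 CPM in phf1 and 22.3, 46.7 and 75.3 CPM in Col-0 (0.98 ± 0.14, adjusted p = 4.53e-04, edgeR). SQD1, which makes the head group of sulfolipid, had 40.7 to 98.7 CPM in phf1 and 27.5 to 40.7 CPM in Col-0 (0.64 ± 0.10, adjusted p = 0.00164). Its groups met at the printed digits and were apart only beyond them. PLDZ2, a phospholipase D, was 1.14 ± 0.22 higher (adjusted p = 0.0115), a call that held in 1 of the 4 fits without a replicate number. SQD2, the sulfolipid synthase, stood at 0.29 ± 0.12 (adjusted p = 0.328). MGD3, a monogalactosyldiacylglycerol synthase, stood at 0.60 ± 0.30, with 1.41 in experiment A and −0.22 in B (adjusted p = 0.45).

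**Figure D3:**
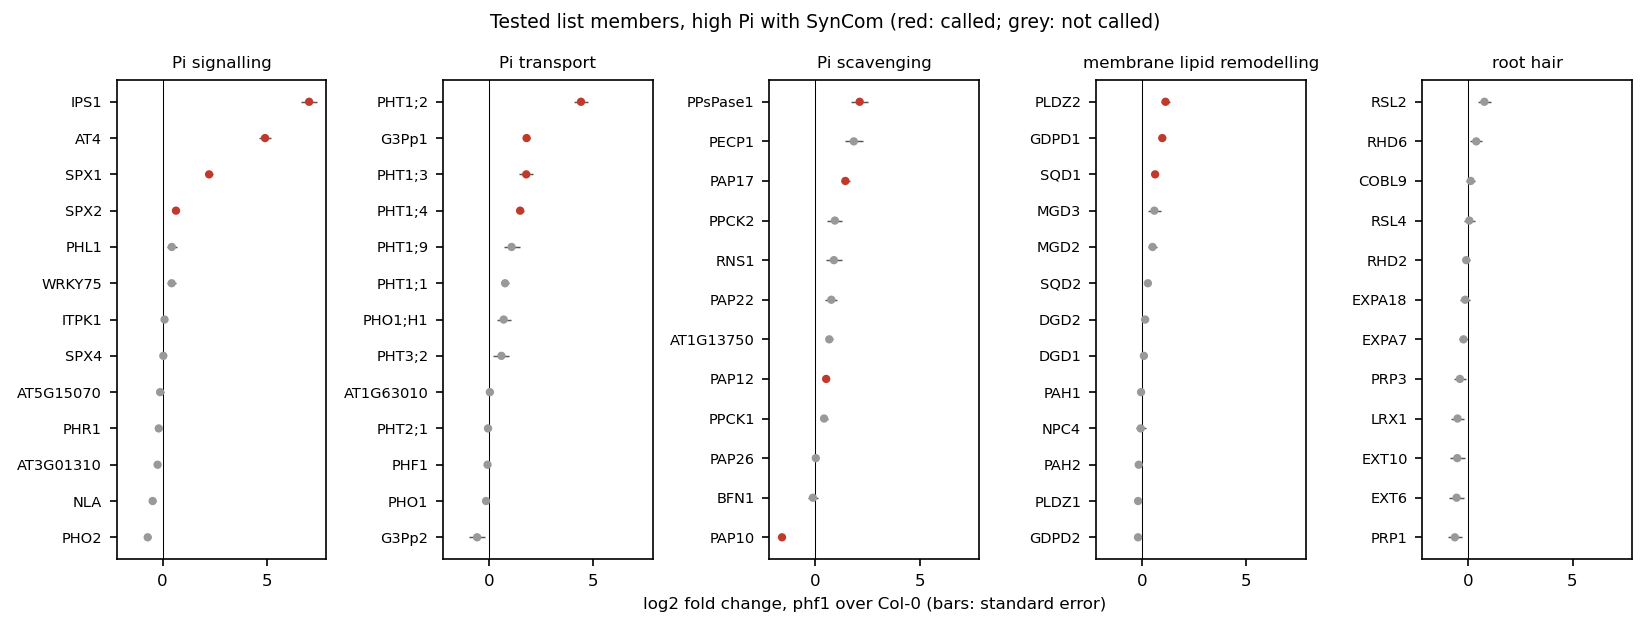
Log2 fold change of phf1 over Col-0, with its standard error, for every tested member of the 4 Pi lists and of the root hair list at high Pi with SynCom (n = 12 each). Red members were called, 14 above 0 and PAP10 below 0, and none of the root hair list is red.

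Genes outside the lists were also called, and those named next that lie outside the rule for named genes were chosen after their values were seen. OCT1, an organic cation and carnitine transporter, had 0.638, 5.07 and 25.6 CPM in phf1 and 0, 0.612 and 1.81 CPM in Col-0 (3.45 ± 0.37, adjusted p = 3.05e-06, edgeR). Its phf1 values were 6.2 to 25.6 CPM in experiment A and 0.638 to 3.93 CPM in B. PFA-DSP4, annotated only by its superfamily, that of the phosphotyrosine protein phosphatases, had 9.19, 14.2 and 23.6 CPM in phf1 and 2.79, 5.42 and 8.16 CPM in Col-0 (1.47 ± 0.17, adjusted p = 1.42e-05). NSP3, which directs glucosinolate breakdown to nitriles, was 1.37 ± 0.18 higher (adjusted p = 8.78e-05). AT1G08310, annotated as an alpha/beta-hydrolase and also a carrier of P1BS, had 4.3, 6.87 and 29.8 CPM in phf1 and 0.904, 2.47 and 5.18 CPM in Col-0 (1.72 ± 0.25, adjusted p = 5.46e-04). The genes below Col-0 other than PAP10 were AT3G13980, annotated as a SKI/DACH domain protein (−0.81 ± 0.15, adjusted p = 0.009), and AT3G60380, annotated as a cotton fiber protein (−0.64 ± 0.12, adjusted p = 0.00966). Each of these 2 calls was lost in 2 or more of the fits without a replicate number.

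The smallest p belonged to no Pi gene. AT1G07920, annotated as an elongation factor of the EF-Tu family, had 94.2, 115 and 202 CPM in phf1 and 15.3, 23.3 and 27.8 CPM in Col-0 (2.55 ± 0.11, adjusted p = 2.53e-14, edgeR). It shares 66.2% of its 50-base windows with other copies of that gene, so its count is uncertain, and its neighbour copy AT1G07930 was 0.65 ± 0.11 higher (adjusted p = 0.00356), a call that held in 2 of the 4 fits without a replicate number. AT5G35760 had 1.82, 4.16 and 7.58 CPM in phf1 and 0, 0.215 and 0.471 CPM in Col-0. Its 235 counts in phf1 and 9 in Col-0 gave a ratio of 23.3 (95% interval 12 to 51.5, counting error only). These genes kept their difference in the other conditions. The AT1G07920 difference was 2.51 in axenic seedlings at high Pi and 2.54 under SynCom at low Pi, and the AT5G35760 difference was 4.96 and 3.86 in those conditions. AT1G07920 was also high in phr1phl1 at high Pi with SynCom, with a median of 156 CPM beside 120 in phf1 and 24.5 in Col-0 on the scale of the whole series, whereas the median of AT5G35760 was 0 CPM in phr1phl1 and 4.36 CPM in phf1.

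The genotype effect was compared between experiments and between pre-treatments. All 39 called genes that could be fitted in both experiments had the same sign in A and B. They were called on the libraries of both experiments together, so this agreement follows in part from their selection and is no replication. Experiment A alone gave 20 calls of 18111 genes (0.11%) and experiment B alone 24 of 17477 (0.137%). The test of the difference passed for 1 gene (0.00558%), AT4G33720, annotated as a CAP superfamily protein, whose effect was 1.52 in B and −0.88 in A (difference 2.40 ± 0.37, adjusted p = 0.0183, edgeR). Leaving out the doubtful libraries, or any replicate number, ended that call. Between the pre-treatments the effect differed for 0 genes at an adjusted p under 0.05 in edgeR and for 328 at an unadjusted p under 0.05. Within single pre-treatments, with 4 libraries against 4, there were 11 calls after −P (0.0614%), 12 after +P (0.0669%) and 12 after +Phi (0.0669%). The 8 genes called after every pre-treatment were IPS1, AT4, SPX1, PHT1;2, G3Pp1, PAP10, AT1G07920 and AT5G35760. After −P, +P and +Phi the AT4 difference was 5.67, 4.98 and 4.30, and that of PHT1;2 was 4.40, 5.42 and 3.58.

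At high Pi more genes were called without bacteria than with SynCom. In a single fit of 48 libraries, of 18443 genes tested, 93 were called with SynCom (0.504%) and 1251 without bacteria (6.78%). Those without bacteria were 751 higher in phf1 (4.07%) and 500 lower (2.71%). The 42 calls given above come from the 24 SynCom libraries fitted alone. Of the 39 genes higher in that fit, 35 were also higher without bacteria, which is 89.7% of the SynCom list and 4.66% of the axenic list. In the fit of 48 libraries the Pi lists had 53 members tested, with 19 called with SynCom and 33 without bacteria. AT4, with a difference of 4.91 in the 24 SynCom libraries, had 6.11 without bacteria, SPX1 had 2.23 with SynCom and 2.89 without, and PHT1;4 had 1.49 and 2.36. None of these 3 passed the test of the difference between bacterial conditions (adjusted p = 0.18, 0.327 and 0.18, edgeR).

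That test passed for 12 genes (0.0651%). The phf1 effect was lower with SynCom than without bacteria for 11 of them (0.0596%) and higher for 1 (0.00542%). NPC4, a phospholipase C of the lipid list, had an effect of 0.01 with SynCom and 1.93 without bacteria (difference −1.92 ± 0.35, adjusted p = 0.0133, edgeR). For AT5G19890, annotated as a peroxidase, the effect was −0.34 with SynCom and 1.16 without (difference −1.50 ± 0.27, adjusted p = 0.0133). AT1G26250, annotated as a proline-rich extensin-like protein, had −0.27 with SynCom and 1.99 without (difference −2.26 ± 0.42, adjusted p = 0.0133). LRX1, a leucine-rich repeat extensin of root hair cell walls, had −0.52 with SynCom and 1.65 without (difference −2.17 ± 0.43, adjusted p = 0.0247). On a scale set over the 96 libraries of these 2 genotypes, LRX1 medians were 28.8 CPM in phf1 and 30.9 CPM in Col-0 with SynCom, and 21.4 CPM in phf1 and 7.43 CPM in Col-0 without bacteria. Its groups overlapped with SynCom but not without bacteria, where they were 12.6 to 27.2 CPM in phf1 and 0.477 to 11.4 CPM in Col-0.

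The root hair list as a whole had 0 of 12 members called with SynCom (1 at an unadjusted p under 0.05 in edgeR, 0 by DESeq2 and 0 by limma-voom), and its median log2 difference was −0.18. Without bacteria 9 of the 12 were higher in phf1, with a median of 1.03. Among all genes tested in that condition, 4.07% were higher and 2.71% lower, with a median of 0.01. Some organ markers also differed there. Of the 6 root markers 3 were higher (median of the 6, 0.76). These 3, COBL9, PRP3 and RHD6, also belong to the root hair list. Of the 6 shoot markers 3 were lower (median −0.28). Without bacteria the summed root markers were 909.6 to 1372 CPM in phf1 (median 1090) and 898.1 to 1259 CPM in Col-0 (median 1045). The summed shoot markers were 16650 to 25110 CPM in phf1 (median 21790) and 20370 to 33620 CPM in Col-0 (median 25340). No marker was at 0 in any of these libraries. The part of the organ markers in the root hair difference was not tested. LRX1 and EXT10, an extensin whose difference was −2.41 ± 0.51 (adjusted p = 0.0423), passed the test of the difference. WRKY60, a transcription factor, went the other way, with 0.19 with SynCom and −1.24 without bacteria (difference 1.43 ± 0.31, adjusted p = 0.0423). AT3G13980 was the only called gene whose effect differed with bacteria, with −0.80 with SynCom and 0.20 without (adjusted p of the difference 0.0284). These calls rest on particular libraries, since the count of 12 was 3 without the doubtful libraries, 0 without replicate A1, 0 without A2, 19 without B1 and 1 without B2.

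At low Pi with SynCom 3 genes of the Pi lists were called, IPS1, PAP10 and PHF1, all lower in phf1, beside 11 at high Pi in the same fit of 48 libraries, with 61 members tested. Of all 18795 genes in that fit, 20 were called at low Pi (0.106%) and 36 at high Pi (0.192%), with 14 of the 20 higher in phf1 (0.0745%) and 6 lower (0.0319%). Of the 39 genes higher at high Pi in the 24 libraries alone, 4 were also higher at low Pi, which is 10.3% of the high Pi list and 28.6% of the low Pi list. On the scale of 96 libraries, AT4 medians were 150 CPM in phf1 and 6.48 CPM in Col-0 at high Pi, and 1110 CPM in phf1 and 1080 CPM in Col-0 at low Pi. SPX1 medians were 39.5 CPM in phf1 and 10.7 CPM in Col-0 at high Pi, and 362 CPM in phf1 and 386 CPM in Col-0 at low Pi. The phf1 level at high Pi thus lay between the levels of Col-0 at high Pi and at low Pi for both genes.

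The genotype effect differed with Pi for 14 genes (0.0745%). The phf1 effect was higher at high Pi than at low Pi for 11 of them (0.0585%) and lower for 3 (0.016%). AT4 differed by 4.48 ± 0.37 (adjusted p = 9.51e-12, edgeR), SPX1 by 2.18 ± 0.29 (adjusted p = 6.65e-06), PHT1;2 by 3.61 ± 0.59 (adjusted p = 6.5e-04) and G3Pp1 by 1.75 ± 0.27 (adjusted p = 2.45e-04). IPS1 also passed (adjusted p = 4.36e-09), and its effect turned round. At low Pi its median was 32.7 CPM in phf1 and 128 CPM in Col-0 (−1.42 ± 0.29, adjusted p = 0.0174), and at high Pi it was 8.73 CPM in phf1 and 0 CPM in Col-0. OCT1, PFA-DSP4, PAP17, AT1G08310 and AT3G13980 were the other called genes that passed, which makes 10 of the 42. PHF1 itself was lower in phf1 at low Pi with SynCom (−0.94, adjusted p = 2.83e-04), beside −0.07 at high Pi, and the test of that difference did not pass (0.85 ± 0.22, adjusted p = 0.223). The count of 14 was also 14 without the doubtful libraries, and 9 without replicate A1, 11 without A2, 5 without B1 and 6 without B2.

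**Figure D4:**
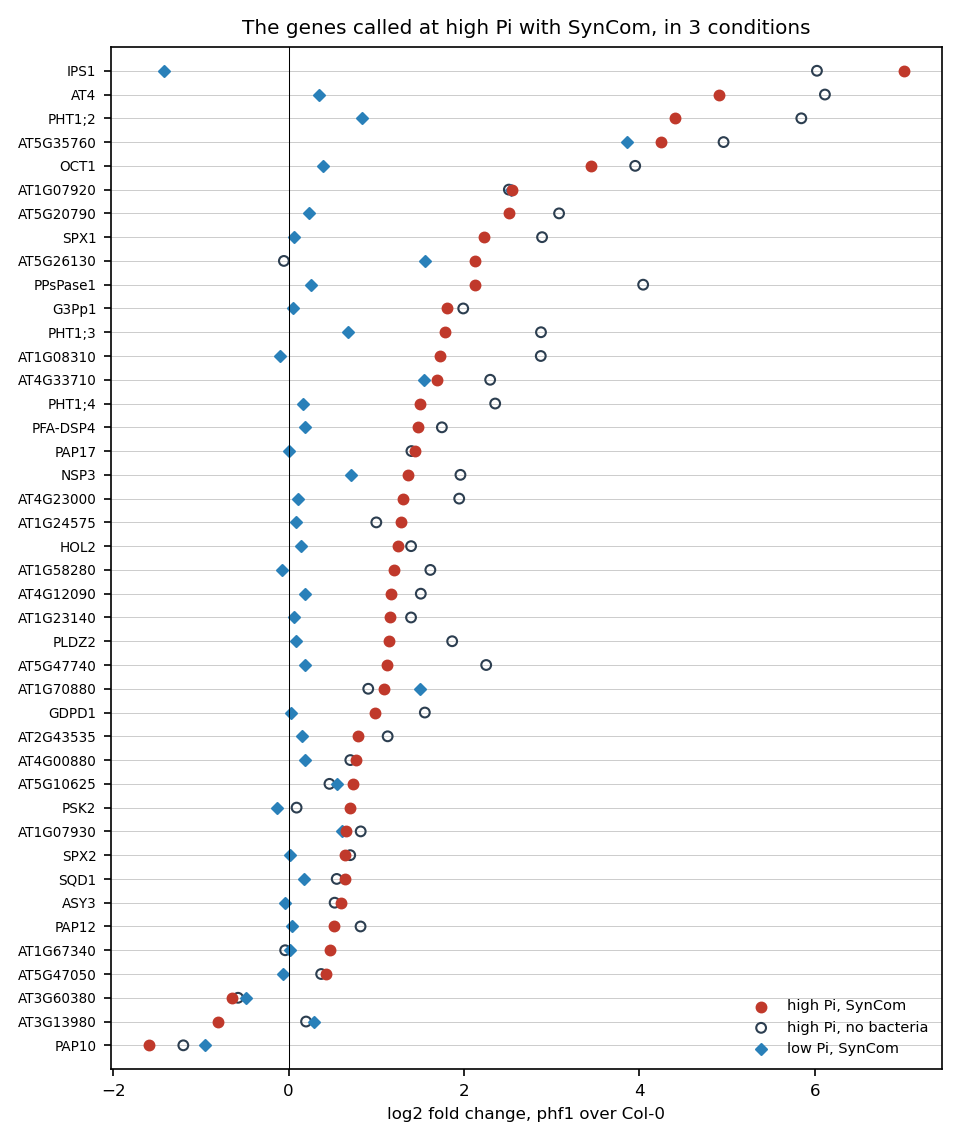
Log2 fold change of phf1 over Col-0 for the 42 genes called at high Pi with SynCom (red), with the same genes in axenic seedlings at high Pi (open) and in SynCom seedlings at low Pi (blue), n = 12 libraries per genotype and condition. Red values come from the 24 libraries fitted alone, the others from fits of 48. Most blue points lie near 0, and the blue point of IPS1 is at −1.42. The blue points of some genes, among them AT1G07920, AT5G35760, AT1G07930 and AT3G60380, stay close to the red ones.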

How the data were processed

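Poly(A) RNA of whole seedlings was sequenced from non-stranded libraries, per the labels' protocols, so antisense partners cannot be told apart. The deposited values are raw counts per gene, which the authors did not normalise. The submitters' processing notes name CASAVA 1.8, cutadapt 1.3, TopHat2 2.1.1, HTSeq 0.6.1p1 and the TAIR10 build. The table lists 27206 genes, 25170 with at least 1 count. Gene symbols are those written in the gene lists for listed genes, and otherwise those of RefSeq, which lacks 487 of the loci.

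Genes were filtered with filterByExpr (minimum count 10), libraries scaled by TMM, and genotype tested with edgeR 4.0.16 (R 4.3.3, quasi-likelihood) over the 24 libraries, with experiment and pre-treatment as additive blocks. Genes were called at a Benjamini-Hochberg adjusted p under 0.05. Differences between conditions were interaction terms, fitted on 48 libraries for bacteria and Pi. Alternatives included DESeq2 1.42.0 and limma-voom (limma 3.58.1). The procedure was tested on simulated data.

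Named genes were PHF1, PHR1, PHL1, 16 fixed Pi genes, up to 4 members of smallest p per list, up to 8 called genes per direction of largest change with at least 5 CPM and one sign in A and B, and up to 5 per difference test. Members and lists were chosen with earlier results of these data known. In 36 within-group pairs no libraries held identical counts, and the chi-square of the closest pair was 3.02 per degree of freedom.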

Additional observations from a re-analysis of the deposited data

Results flagged for a closer look

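In 209 groups of 4 libraries (a gene in a genotype after a pre-treatment), the highest or lowest library stood apart from the other 3 in 18. The limit used sets apart about 1 group in 20 where 4 values are alike and normally spread. These groups joined 2 libraries of experiment A and 2 of B. A group with counts in only 1 library was set apart whatever that count. The 18 can therefore not be compared with that rate. Library phf1 −P A1 was the highest of its group in 5 of the 18. It had 461 CPM of AT4 (others 89.9 to 116), 96.1 CPM of SPX1 (others 28.3 to 38.8), 17.1 CPM of PPsPase1 (others 1.31 to 2.3), 4.45 CPM of MGD3 (others 1.15 to 1.31) and 8.16 CPM of AT5G20790 (others 0.786 to 1.23). The other A library of that group was the doubtful −P A2. The phf1 libraries +P A1, +P A2 and +Phi A2 had 353, 511 and 320 CPM of AT4 and 67.6, 93.6 and 67.6 CPM of SPX1. For PPsPase1 they had 21.5, 4.86 and 3.17 CPM. An unusual library and a difference between experiments cannot be told apart in such a group. PPsPase1 also had a single high library after +P in phf1 (A1, 21.5 CPM, others 1.77 to 4.86) and after +Phi in phf1 (A1, 9.49 CPM, others 2.23 to 3.17) and in Col-0 (A1, 6.22 CPM, others 0.646 to 1.03).

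Library phf1 −P A2, of doubtful genotype, had 71 CPM of PHL1 (others 13.1 to 15.6) and the lowest PHR1 of its group, 50.8 CPM (others 63.4 to 64.5). Library phf1 +Phi A1, also doubtful, had 30.5 CPM of PHL1 (others 11.4 to 12.5). IPS1 was highest in A2 among phf1 libraries, with 26.2 CPM after +P (others 9.53 to 11.1) and 15.6 CPM after +Phi (others 6.25 to 7.49).

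Among Col-0 libraries, IPS1 was at 0.327 CPM in +P A2 and at 0.215 CPM in +Phi B2, with the other 3 of each group at 0, and AT5G35760 was at 0.383 CPM in −P A1, with the others at 0. AT4 was at 6.91 CPM in Col-0 −P B2 (others 2.71 to 2.88), and PHT1;1 at 268 CPM in Col-0 +Phi A1 (others 72.6 to 81.5). The effect of genotype on AT4G33720 differed between experiments B and A by 2.40 on the log2 scale.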

How the results depend on the processing

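The 42 calls at high Pi with SynCom became 20 with experiment A only, 24 with experiment B only, 27 with no experiment term and 129 with DESeq2's Wald test, of which 81 were higher and 48 lower in phf1 against 39 and 3 in edgeR. They were 21 to 40 without a replicate number. Other filters, size factors, limma-voom, or block terms apart from the replicate block given below, gave 40 to 54. There were 45 with the whole series in the fit (34 shared). Without the library phf1 −P A1, a fit chosen after seeing the data, there were 42 (37 shared). The 1 call between experiments became 0 without the doubtful libraries, 0 without any replicate number and 3 with DESeq2. The 12 calls of a difference with bacteria became 3 without the doubtful libraries, 0 to 19 without a replicate number, 27 with no filter beyond 1 count and 50 with DESeq2. The 14 calls of a difference with Pi became 5 to 11 without a replicate number and 27 with DESeq2. The causes were not tested. Differences of uncalled genes changed sign for MGD3 (−0.22) and PHO1 (0.10) in experiment B only, for PHF1 without a replicate number (−0.1965 to 0.0026) and in experiment B only (0.0917), and for PHL1 without the doubtful libraries (−0.0209).

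Replicate numbers were not taken as pairs, since the labels tie no number to a shared plate or day and 1 of 6 correlations of same-numbered residuals across genotypes was not over 0.1. They were −0.139 to 0.479, and over 0.1 in 5 of 6, a hint from the data that same-numbered libraries deviated together. With the replicate block the fit called 164 genes, 98 higher and 66 lower, with 68 for the difference with Pi, 20 for that with bacteria, 1 between experiments and 1 between pre-treatments. Depth limits genes of a few CPM, such as IPS1 in Col-0, where 2 counts were found in 12 libraries.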

Other observations

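Beyond the Pi genes, 25 other lists made for this comparison, with 265 of 301 genes tested, had 0 members called at high Pi with SynCom in edgeR. At an unadjusted p under 0.05 were 45 of the 265 (17%), 32 above and 13 below Col-0, beside 2051 of all 17928 genes tested (11.4%), and DESeq2 and limma-voom called 2 each. DESeq2 called NIT2, a nitrilase (0.95, adjusted p = 0.00274), and GBSS1, a granule-bound starch synthase (0.58, adjusted p = 0.0365). limma-voom called the cold-induced genes COR15A (adjusted p = 0.0462) and KIN1 (adjusted p = 0.0286). NIT2 had 30.7, 134 and 524 CPM in phf1 and 14.2, 73.4 and 244 CPM in Col-0, a difference of 0.94 ± 0.21 just short of the threshold in edgeR (adjusted p = 0.0542), while without bacteria it was 0.16. The aliphatic glucosinolate list had the highest median of these lists, 0.51 over 16 genes tested, with 6 members (37.5%) at an unadjusted p under 0.05, all above Col-0, and none called by edgeR, DESeq2 or limma-voom. For the indole glucosinolate list that share was larger, 3 of 7 (42.9%), also all above Col-0. The aliphatic list had a median of 0.80 in experiment A and 0.18 in B. Its member of smallest p, BCAT4, the aminotransferase at the start of methionine chain elongation, had 6.15, 15.7 and 84 CPM in phf1 and 4.59, 11.6 and 23.1 CPM in Col-0 (1.00 ± 0.29, adjusted p = 0.184). Of the 11 genes of the nitrate list tested, none was called and 4 (36.4%) were below Col-0 at an unadjusted p under 0.05, among them NIR1, the nitrite reductase (−0.45 ± 0.13, adjusted p = 0.194, edgeR). The median of all genes tested was 0.01.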
